A study of Populus davidiana with 6 samples.

Results

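Loci were examined at which the air-dried and control leaves held about the same summed transcript level while the transcripts of the locus took other shares of it. A locus is a set of transcripts under 1 locus identifier, and a share is the level of 1 transcript as a percentage of the locus sum in the same library. A locus was taken when it had 2 or more transcripts, spanned 500 to 8000 bases and summed to at least 5 FPKM (fragments per kilobase of transcript, scaled to the size of the library) in all 6 libraries. In addition, the mean sum in air-dried libraries had to lie between 0.8 times that in control libraries and the inverse ratio. At least 1 transcript had to differ in mean share by 25 percentage points or more, with no overlap between the 3 air-dried and the 3 control shares. Of 40537 loci, 10201 met the conditions on transcripts, span and level, 8030 of these also had a steady sum, and 121 met the whole rule. The loci were thus chosen by the shares and sums of these same libraries, which are described here without a test. The label of unchanged totals holds as a range: the ratio of mean sums, air-dried over control, lay between 0.81 and 1.249. Its median was 1.06, against 1.04 at the 7909 other loci with a steady sum. The ratio was above 1 at 82 of the 121 loci. That was not counted at the other loci, so nothing is read from it.

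The leaves came from saplings of an aspen, Populus davidiana. Its cultivar is Palgong2, labelled as drought tolerant. Air-dried plants, in 3 libraries, were pulled from the medium, washed and kept in the open air for some 10 min, while control plants, also in 3 libraries, were not dried. Both groups were propagated from internodes in sterile culture on a sugar medium with naphthalene acetic acid, and the sources do not say whether control plants were also pulled and washed. The labels speak of triplicate leaf samples but not of separate plants, so the spread between libraries may be technical. The files pair no identifier with a gene name, so the leaf label was not checked against marker genes and the loci are given mostly by position. The sources used here do not name a genome build.

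Most plant genes with introns can give more than 1 messenger RNA. Alternative splicing retains or skips parts of a transcript, or uses neighbouring splice sites, while alternative promoters and poly(A) sites move its ends. In plants, retained introns are a frequent form, and splicing patterns are known to respond to light, temperature, drought and other stresses. Such a change can leave the total RNA of a gene where it was and still alter which protein is made, or expose the RNA to decay. Short-read data do not follow a molecule from end to end, so the level of each transcript is an estimate: a program divides the fragments that fit several transcripts among them by a statistical model. The deposited values give no error for that division.

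Relative depth was estimated indirectly, because no counts are given, and absolute depth is unknown. The estimates were similar, at 0.976, 0.917 and 1.01 times control replicate 1 in air-dried replicates 1, 2 and 3. In control replicates 2 and 3 they were 0.956 and 1.00 times. Air-dried replicate 1 stood apart at very short loci, where it exceeded the mean of the other air-dried libraries by a median of 2.85 log2 units at spans up to 300 bases, against 0.08 at 500 to 8000 bases. In transcript shares the libraries fell into 2 sets that cross the treatment, namely air-dried replicate 1 with control replicates 1 and 3, and air-dried replicates 2 and 3 with control replicate 2. Over the 10201 loci, the median part of a locus that had to be moved to turn the shares of 1 library into those of another was 7.68 to 9.40 points within a set and 9.99 to 11.9 points across sets. The same order held at the 4176 loci with at least 20 FPKM in every library, at 4.80 to 6.40 points within and 6.79 to 9.20 points across. By treatment, the distances were 7.68 to 11.9 points within the air-dried group, 8.15 to 11.01 points within the control group and 8.22 to 11.9 points between groups. Over all these loci the libraries therefore did not separate by treatment in their transcript shares. The labels name nothing that the sets share, and their part in the results below was not tested beyond the values given for each set.

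**Figure D1:**
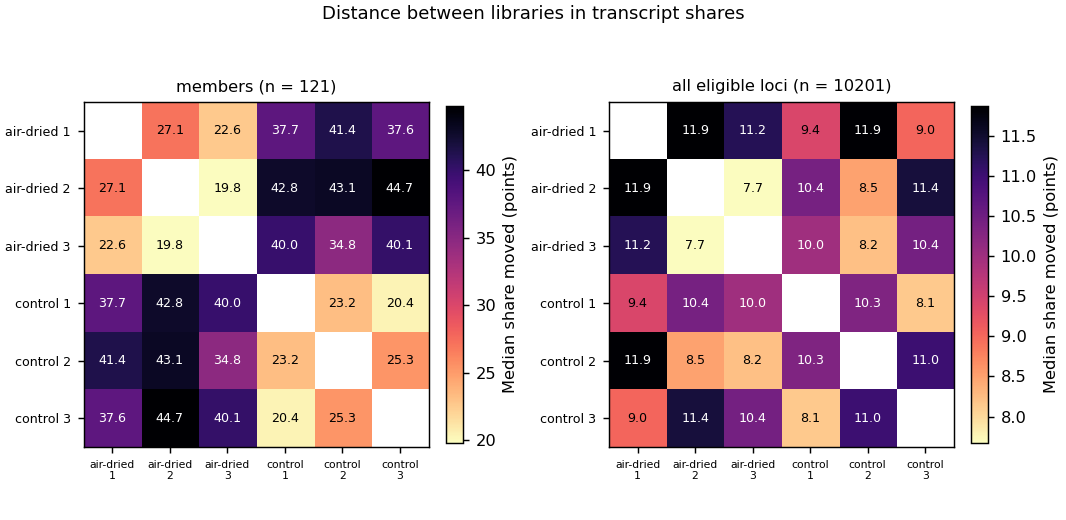
Distance between each pair of libraries in transcript shares, as the median share moved per locus in points, for the 121 loci (left) and all 10201 eligible loci (right). Colour scales differ between the panels. Left, the groups stand apart because the rule chose loci that way, with 34.8 to 44.7 points between groups; right, air-dried replicates 2 and 3 are nearest to each other and to control replicate 2.

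At each of the 121 loci, the leading transcript is the one with the largest share difference among those that met the rule. Another transcript of the locus, with overlap between groups, could differ more. The leading transcript took a higher share in air-dried leaves at 71 loci and a lower one at 50. Leaf libraries pool many cell types, so a share that differs because other cells contribute and one that differs within cells cannot be told apart. As background, 1.51% of the 8030 loci with a steady sum met the rule, 0.884% with a leading transcript that gained share and 0.623% with one that lost it, and nothing is read from these counts. At 7 loci with only 2 transcripts the gain and the loss are equal, and the transcript listed first was taken as leading. Without those, the leading transcript gained share at 66 of 114 loci.

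Where the leading transcript gained share, its median share was 50.5%, 54.8% and 50.9% in air-dried replicates 1, 2 and 3, against 12.4%, 17.7% and 14.5% in control replicates 1, 2 and 3. Where it lost share, the medians were 29.3%, 17.9% and 28.2% in the air-dried replicates, against 56.3%, 63.3% and 63.0% in the control replicates. The typical shift was thus between a minor and a main form of the locus. The largest transcript of the locus by mean share was another one in air-dried than in control leaves at 69 of the 121 loci. Complete presence or absence was rarer: the leading transcript stayed under 1% of its locus in all 3 air-dried libraries at 3 loci and in all 3 control libraries at 9, and held over 90% in all air-dried libraries at 3 loci and in all control libraries at 5.

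**Figure D2:**
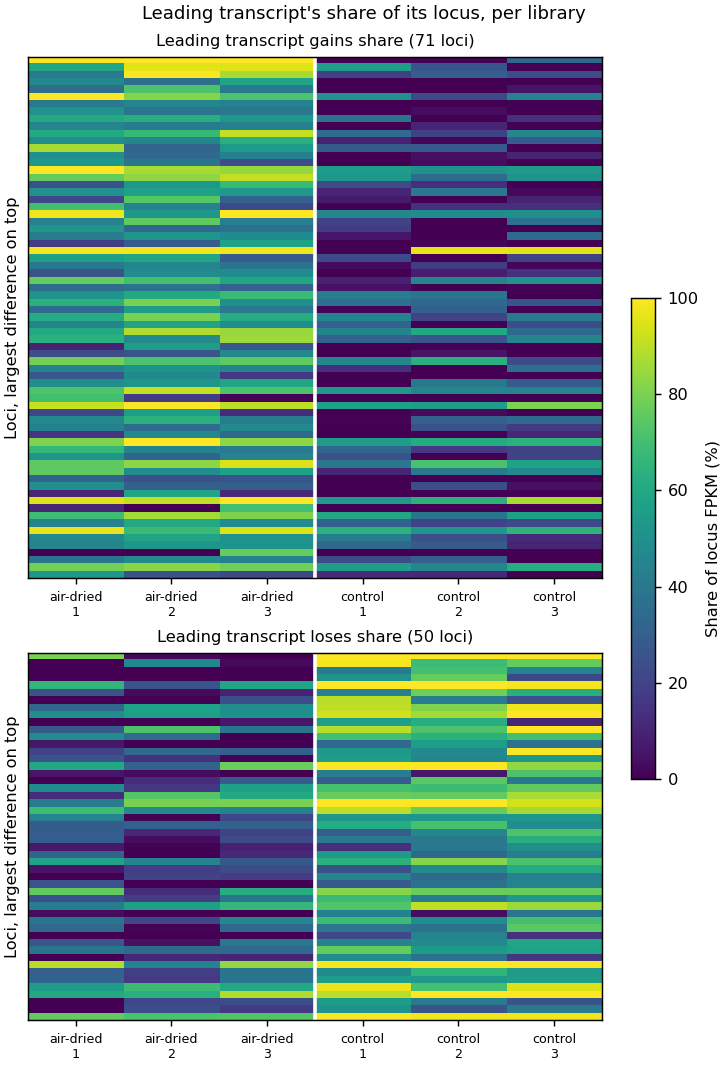
Share of the locus FPKM (%) taken by the leading transcript in each library, 1 row per locus, with the largest difference on top; air-dried libraries are left of the white line and control libraries right of it. The upper panel holds the 71 loci whose leading transcript gained share and the lower panel the 50 whose leading transcript lost share, and within many rows the 3 libraries of a group differ visibly.

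The absolute share difference ran from 25.04 to 88.7 points with a median of 30.9, so most loci sat near the minimum of 25. The spread within groups was a sizeable part of that: the SD of the leading share over 3 libraries had a median of 11.3 points in air-dried and 10.5 points in control leaves. At 69 loci the leading share ranged over more than 30 points within 1 of the groups. The gap between the nearest libraries of the groups was at least 10 points at 57 loci, from 2 to under 10 at 45 and under 2 at 19, with a median of 9.25 points. In FPKM, the leading transcript had a mean at least 2-fold higher in air-dried leaves at 56 loci and at least 2-fold lower at 29.

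Shares of a locus make up its whole sum, so a move of 1 transcript is always balanced by the others together. How far a single other transcript took it up is described here. The partner, the transcript of the same locus with the largest opposite difference, moved by a median of 82.1% of the leading transcript's move, and by at least 80% of it at 66 loci. Its own shares did not overlap between groups at 68 of the 121 loci. At 79 loci 1 transcript reached the 25 points without overlap and at 42 loci 2 did.

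The largest difference was at a locus on the plus strand of chromosome 16, from 13585154 to 13589680, with 1 annotated transcript and 1 assembled from the reads. The assembled one made up 99.9%, 99.9% and 100.0% of the locus in the air-dried libraries, against 0.124%, 0.581% and 33.0% in the control libraries. Its locus sums were 8.25, 6.89 and 8.13 FPKM in air-dried and 7.64, 6.40 and 7.73 FPKM in control leaves. All 3 air-dried libraries held almost only the assembled form, while control replicate 3 held a mixture. The annotated form starts 117 bases further into the locus at the 5′ end and shares the 3′ end, so the forms differ at least in where they begin.

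The next largest difference lay on the plus strand of chromosome 9, from 7529836 to 7532082, a locus summing to 126, 160 and 164 FPKM in air-dried and 154, 154 and 140 FPKM in control leaves. Its assembled leading transcript held 79.7%, 2.44% and 0.0298% in the air-dried libraries, against 100.0%, 99.7% and 100.0% in the control libraries. The annotated transcript, which starts 100 bases upstream of it, took 20.3%, 97.2% and 99.7% in the air-dried libraries, against 0.00193%, 0.324% and 0.00236% in the control libraries. Control leaves held 1 form in every library, but air-dried replicate 1 also held mostly that form. Within the set that contains air-dried replicate 1 the difference was 20.3 points, against 98.4 points in the other set.

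On the minus strand of chromosome 4, from 21863987 to 21866490, both transcripts that exchanged share were assembled and begin and end within 5 bases of each other. The leading one held 0.224%, 46.6% and 2.33% in the air-dried libraries, against 98.8%, 68.4% and 76.5% in the control libraries. Its partner took 92.1%, 45.8% and 93.7% in the air-dried libraries, against 0.0604%, 30.02% and 11.7% in the control libraries. Here air-dried replicate 2 and control replicate 2 stood nearest to the other group, both with a mixture of the forms.

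Annotated transcripts led at 4 of the 10 largest differences. POPTR_0002s08690, on the minus strand of chromosome 2 from 6086898 to 6092391, had an annotated transcript with 59.5%, 95.9% and 95.1% of the locus in air-dried libraries, against 55.8%, 25.9% and 0.726% in control libraries. Air-dried replicate 1 and control replicate 1 lay only 3.76 points apart, so the lack of overlap rests on a narrow gap. POPTR_0014s03910, on the minus strand of chromosome 14 from 3120125 to 3122541, had an annotated transcript with 41.1%, 99.3% and 86.7% in air-dried libraries, against 19.0%, 30.4% and 23.7% in control libraries. Its assembled partner, which reaches 143 bases further at the 3′ end, made up 58.9%, 0.662% and 9.60% in the air-dried libraries, against 81.0%, 57.8% and 63.4% in the control libraries.

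Annotated transcripts that lost share included that of POPTR_0009s15070, on the minus strand of chromosome 9 from 11678300 to 11680597. It made up 65.8%, 25.8% and 58.7% of the locus in air-dried libraries, against 100.0%, 100.0% and 98.4% in control libraries. An assembled form with the same start and end took 34.2%, 71.1% and 39.9% in the air-dried libraries, against 0.00663%, 0.0213% and 0.0179% in the control libraries. The control libraries were alike to within 2 points and the air-dried libraries were spread, all below them. The other was POPTR_0017s14230, on the minus strand of chromosome 17 from 14365507 to 14370647, whose annotated transcript held 25.4%, 2.43% and 10.0% in air-dried libraries, against 43.7%, 78.1% and 63.0% in control libraries. All 3 air-dried values lay below all control values, with a gap of 18.3 points.

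A form that was nearly missing from control leaves led on chromosome 10 from 15464051 to 15469942, on the plus strand. This assembled transcript took 47.8%, 36.9% and 58.6% of the locus in air-dried libraries, against 0.00216%, 0.00274% and 0.00339% in control libraries. In level it had 6.18, 4.17 and 6.597 FPKM in air-dried and 0.000249, 0.000329 and 0.000420 FPKM in control leaves. The annotated transcript with the same ends held 52.1%, 59.3% and 41.4% in the air-dried libraries, against 95.1%, 65.6% and 91.5% in the control libraries. The difference of the leading transcript was of one size in both sets of libraries, at 47.8 and 47.7 points.

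The remaining loci among the 12 largest differences showed the same variety. On the minus strand of chromosome 3, from 11964354 to 11968057, an assembled transcript held 0.0384%, 0.0337% and 0.0523% in air-dried libraries, against 40.8%, 70.0% and 45.1% in control libraries. Its assembled partner held 8.19% in air-dried replicate 1 but 79.7% and 75.3% in air-dried replicates 2 and 3, so the share that the leading form gave up went to different transcripts in different libraries. A locus with 18 transcripts on chromosome 3, from 10534410 to 10542134, had a leading form at 0.00640%, 0.0142% and 0.000293% in air-dried libraries, against 51.6%, 76.5% and 21.6% in control libraries. On chromosome 7, from 836174 to 840635, the leading form took 36.2%, 72.2% and 40.4% in air-dried libraries, against 0.00711%, 0.0236% and 5.78% in control libraries. On chromosome 1, from 5933902 to 5935593, an annotated form held 100.0%, 81.6% and 71.5% in air-dried libraries, against 50.6%, 21.9% and 44.2% in control libraries, and starts 303 bases upstream of the assembled form it exchanged share with.

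**Figure D3:**
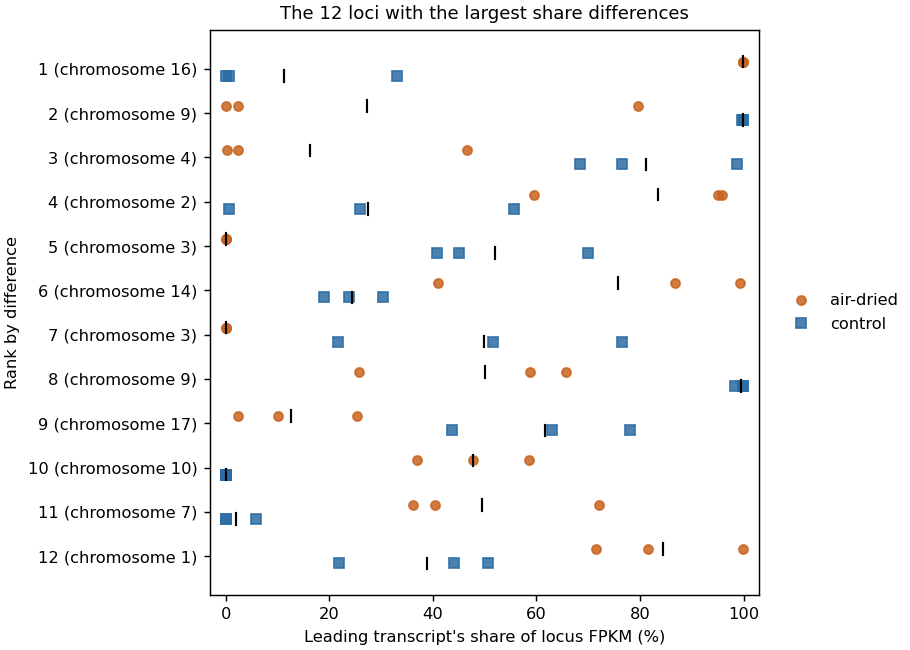
Leading transcript's share of the locus FPKM (%) in each library at the 12 loci with the largest differences; circles above are air-dried libraries, squares below are control libraries and vertical ticks are group means. At ranks 1, 5, 7 and 10, for example, one group is tightly packed near an end of the scale, while at ranks 2, 3 and 6 a single air-dried library lies far from the other air-dried ones.

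Loci with high sums rest on more fragments, and the 6 with the highest sums were mixed. The second of them is the locus on chromosome 9 at rank 2 above. The highest, on the plus strand of chromosome 1 from 35204626 to 35207789, summed to 312, 324 and 326 FPKM in air-dried and 357, 363 and 340 FPKM in control leaves. Its annotated transcript made up 75.6%, 71.6% and 73.0% in air-dried libraries, against 99.6%, 97.8% and 97.9% in control libraries. An assembled form with the same ends made up 23.8%, 28.4% and 24.0% in the air-dried libraries, against 0.000685%, 1.14% and 2.10% in the control libraries. Its difference of 25.04 points was the smallest of all 121, but the shares varied by no more than 4 points within either group and differed by 23.2 and 25.5 points in the 2 sets of libraries.

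Less even was a locus on the minus strand of chromosome 2, from 1935955 to 1937782, with 92.9, 104 and 93.6 FPKM in air-dried and 112, 106 and 98.8 FPKM in control leaves. Its leading assembled form held 44.3%, 75.2% and 42.9% in air-dried libraries, against 20.5%, 0.0774% and 36.4% in control libraries. On the minus strand of chromosome 3, from 12235718 to 12238100, the leading form held 3.32%, 0.000311% and 0.00184% in air-dried libraries, against 43.8%, 3.74% and 38.7% in control libraries. Control replicate 2 there lay 0.415 points from air-dried replicate 1, and the difference was 37.9 points in the first set of libraries but 3.74 points in the second.

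A further locus on the plus strand of chromosome 2, from 21240514 to 21244701, held its groups well apart at 38.4, 48.4 and 43.4 FPKM in air-dried and 47.5, 45.8 and 41.0 FPKM in control leaves. Its leading assembled form took 51.1%, 38.6% and 40.0% in air-dried libraries, against 0.0426%, 3.22% and 0.0321% in control libraries. An assembled partner with the same ends took 5.50%, 0.181% and 0.0568% in the air-dried libraries, against 34.0%, 39.5% and 40.8% in the control libraries. Both forms separated the groups in each library. The sixth locus by sum, on chromosome 1 from 16363013 to 16367742, merges annotated transcripts of 2 parent genes, so its shares may divide reads between genes. Its leading form held 69.7%, 44.4% and 22.4% in air-dried libraries, against 0.0253%, 14.3% and 13.4% in control libraries. Its sums varied widely within groups, at 31.2, 39.6 and 55.4 FPKM in air-dried and 27.6, 59.5 and 25.7 FPKM in control leaves. The share difference was 63.0 points in the first set of libraries and 19.1 points in the second.

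Only 4 of the 121 loci had leading shares within 10 points of each other in both groups, a set singled out after the values were seen. One is the highest locus on chromosome 1 described above. On the plus strand of chromosome 5, from 297398 to 301762, an assembled form took 41.2%, 45.7% and 43.7% in air-dried libraries, against 0.0490%, 0.315% and 0.540% in control libraries. On the minus strand of chromosome 6, from 1716228 to 1720007, an assembled form took 35.4%, 37.4% and 31.5% in air-dried libraries, against 4.71%, 0.0130% and 0.793% in control libraries. On the minus strand of chromosome 13, from 3523783 to 3526406, it took 32.1%, 24.4% and 26.1% in air-dried libraries, against 0.129%, 0.000139% and 0.0433% in control libraries. At all 4, an assembled form took a sizeable share in every air-dried library and under 5% in every control library, and the pair that exchanged share has the same ends. In level, the form on chromosome 5 had 3.26, 3.32 and 3.29 FPKM in air-dried leaves, against 0.00370, 0.0205 and 0.0320 FPKM in control leaves.

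The loci nearest the minimum show how little separates inside from outside. Just inside, apart from the highest locus on chromosome 1, were a locus on chromosome 1 from 6044148 to 6050542 with mean shares of 79.7% in air-dried and 54.4% in control leaves, and one on chromosome 10 from 10379786 to 10385003 with 33.2% in air-dried and 7.95% in control leaves. Just outside were a locus on chromosome 14 from 5785568 to 5791529 with 38.7% in air-dried and 63.6% in control leaves, one on chromosome 6 from 8664853 to 8665995 with 42.6% in air-dried and 17.7% in control leaves, and one on chromosome 12 from 3618986 to 3625071 with 5.63% in air-dried and 30.3% in control leaves. A transcript differed by 25 points or more at 281 of the 8030 steady loci, and at 160 of them the groups overlapped for it. Without a demand on size, 2358 steady loci had some transcript whose groups did not overlap.

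Transcripts assembled from the reads were often the ones that gained share. The transcript with the largest gain was assembled at 96 of the 121 loci, or 79.3%, and that with the largest loss at 71, or 58.7%. At the 7909 other loci with a steady sum the same shares were 60.8% for the largest gain and 58.8% for the largest loss. An assembled form gained and an annotated one lost at 48 of the 121 loci, both were assembled at 48, an annotated form gained and an assembled one lost at 23, and both were annotated at 2. Because gains and losses come from the contrast that chose the loci, these are counts without a test. Annotated transcripts together held a median of 29.7%, 25.8% and 30.2% of the locus in air-dried libraries, against 39.7%, 38.3% and 40.1% in control libraries. Over the 7690 other loci with both kinds, the medians were 60.8%, 60.7% and 61.3% in air-dried and 60.7%, 61.5% and 62.0% in control libraries. The annotated share was lower in air-dried leaves at 70 of the 121 loci and higher at 51, with a median difference of -3.42 points. The same count was not made at the other loci, so nothing is read from it. Of all transcripts listed at the 121 loci, 21.9% were annotated, against 27.8% at the other steady loci.

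Of the 76 leading transcripts that were assembled, 66 have a name ending in the letter j and 9 one ending in o. In the Cufflinks tools, j marks a new transcript that shares a splice junction with an annotated one and o another overlap with it; the files do not state that their letters are these codes.

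The ends of the gaining and losing transcript were compared next, since alternative promoters and poly(A) sites move the ends and internal splicing does not. Both ends lay within 50 bases at 54 loci, or 44.6%. The 5′ end alone differed at 30 loci, the 3′ end alone at 25, and both differed at 12. The other steady loci, paired the same way, gave 45.3% with both ends alike, 21.9% with the 5′ end alone, 23.8% with the 3′ end alone and 8.98% with both. For the 2 most abundant transcripts, a pair that does not depend on the contrast, both ends were alike at 33.1% of the 121 loci, against 42.6% of the others, so how near the loci are to the others depends on the pair compared. At 40 loci the start and the end were identical to the base. The gaining form spanned more than 50 bases more than the losing one at 38 loci and more than 50 bases less at 29. Exon positions are not used here, so whether an intron was retained or an exon skipped was not determined.

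**Figure D4:**
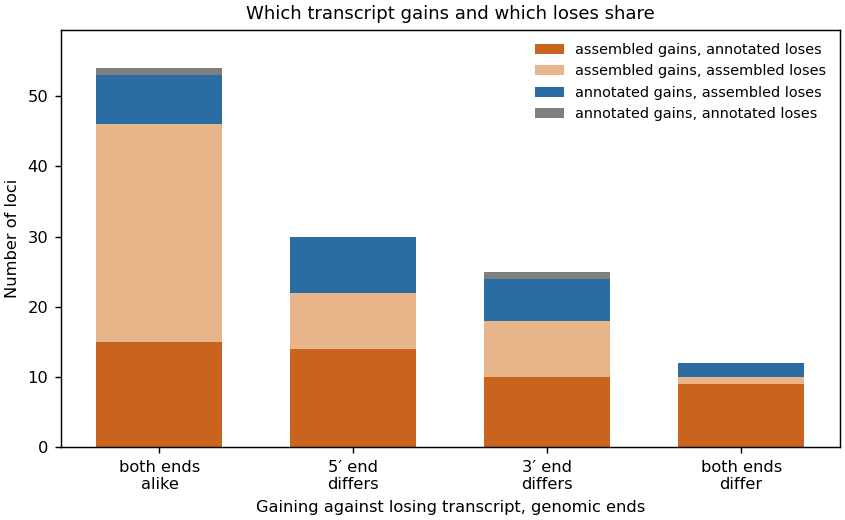
Number of loci (vertical axis) by how the genomic ends of the gaining and the losing transcript compare (horizontal axis, ends alike within 50 bases); colours give which of the pair was annotated and which assembled. Loci with both ends alike are the largest class at 54, and in 46 of them the gaining form was assembled.

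The 121 loci differed from the other 7909 with a steady sum in level and in number of transcripts. Their mean sum over the 6 libraries had a median of 10.7 FPKM, against 18.6 FPKM in the others, so they lay nearer the minimum of 5. They had a median of 5 transcripts, against 4, and 62.0% had 5 or more, against 39.9%. Exactly 2 transcripts were found at 5.79% of them, against 23.1% of the others. Their median span was 4597 bases, against 4116. Their most abundant transcript held a median of 51.8% of the locus, against 75.03% in the others, and was an annotated one at 47.9%, against 62.0%. The SD of its share within groups had a median of 14.0 points, against 7.09 in the others, so shares also varied more between libraries of the same treatment. These are descriptions, and more transcripts give the rule more chances to be met.

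Merging, overlap and position are given next. Several annotated genes were merged at 8 loci, or 6.61%, against 6.26% of the others. A transcript spanning under 500 bases was part of 3 loci, or 2.48%, against 1.67%. At 9 loci, or 7.44%, the locus overlapped another one, against 9.56% of the others, and the labels do not say whether the libraries kept strand. On the plus strand lay 53 loci, or 43.8%, against 50.1% of the others. All but 1 were on the numbered chromosomes, with the most on chromosome 1 at 16 of 953 steady loci, or 1.68%, and the highest share on chromosome 3 at 12 of 446, or 2.69%.

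A reading that the choice did not use comes from a library left out. With each library left out in turn, the rule was applied to the other 5, and the leading transcript was then read in the sixth where the locus summed to at least 5 FPKM there too. The 6 choices gave 1508 such readings in all, with a median absolute difference of 32.2 points in the libraries that chose them. In the library left out, the share differed from the other group's mean by a median of 9.01 points in the same direction. That mean came from the libraries that chose the locus, so some difference in this direction can follow from the choice alone. It lay nearer the mean of its own group than that of the other in 568 of 1508 readings, or 37.7%, and on the opposite side of the other group's mean in 532. Taking the transcript with the largest difference at every steady locus, whatever its size, the same reading fell nearer its own group in 47.4% of 47371 cases. The differences were thus much smaller in a library that had not helped to choose them, with a median of 0.894 points in air-dried replicate 1 and 0.777 in control replicate 2 and more in the other 4. In 706 of the readings, or 46.8%, the share lay beyond all libraries of the other group in the direction of the choice. By library this was 33.4% to 60.9%, against 30.4% to 37.4% for the largest difference at every steady locus. It was the higher of the pair in each of the 6 libraries. The chosen loci already lacked overlap among the 5 choosing libraries, which was not asked at every steady locus. The percentages are therefore not alike, and no replication is read from them. The median held-out difference by library was 0.777 to 17.2 points where the choosing libraries had 30.8 to 32.6, against 0.0986 to 2.07 points where they had 5.62 to 6.65 at every steady locus. Pooled over libraries, the chosen loci were thus below all steady loci in the first measure, but not in control replicate 3 (53.3% against 51.2%). That measure divides the readings midway between the group means, which lay farther apart at the chosen loci. In the other measures the chosen loci were above all steady loci in each library. None of these was tested, and the loci compared were chosen in unlike ways.

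The readings differed between libraries along the sets named above. Air-dried replicate 1, left out, was nearer its own group at 94 of 356 loci, or 26.4%, with a median difference of 0.894 points. Control replicate 2, left out, was nearer its own group at 91 of 341, or 26.7%, with a median of 0.777 points. These are the 2 libraries whose set holds more libraries of the other group. The other 4 gave 44.7% and 43.8% for air-dried replicates 2 and 3, and 47.3% and 53.3% for control replicates 1 and 3, with medians of 12.9, 13.9, 15.7 and 17.2 points. At all steady loci the values for these 6 libraries were 39.6%, 49.9% and 49.4% for air-dried replicates 1, 2 and 3, and 52.8%, 41.5% and 51.2% for control replicates 1, 2 and 3.

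**Figure D5:**
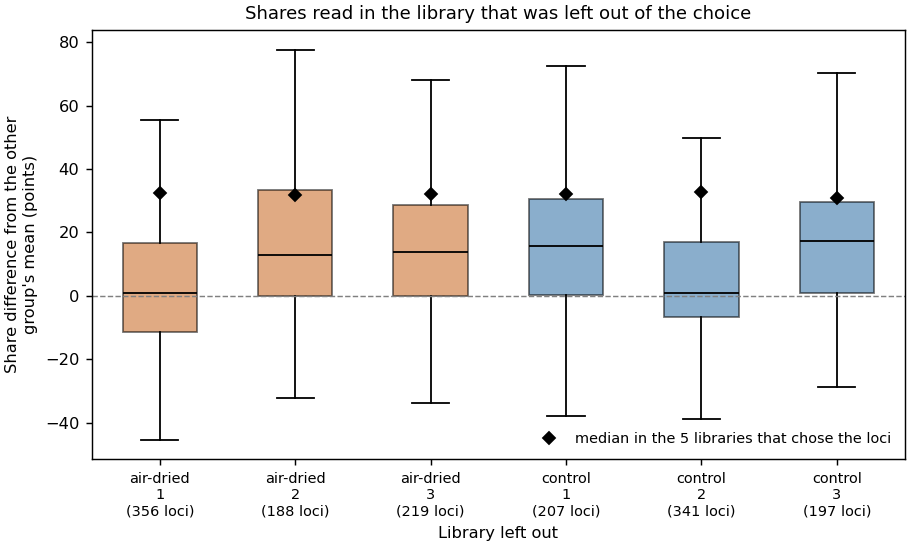
Share difference from the other group's mean (points, positive in the direction in which the locus was chosen) read in the library left out of the choice, with air-dried libraries left and control libraries right. Boxes are quartiles over loci with the median as a line, whiskers reach the farthest locus within 1.5 box heights, and diamonds are the medians in the 5 libraries that chose the loci, near 32 points; the boxes of air-dried replicate 1 and control replicate 2 are centred near 0.

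Within each set of libraries the 121 loci kept their direction by the choice itself, so only sizes are given. In the set of air-dried replicate 1 with control replicates 1 and 3, the median difference was 30.2 points, with 74 loci at 25 points or more and 11 under 12.5. In the set of air-dried replicates 2 and 3 with control replicate 2, the median was 32.1 points, with 88 loci at 25 points or more and 10 under 12.5. Both sets reached 25 points at 43 loci. With the 121 loci held fixed, 102, 90 and 109 stayed at 25 points or more without air-dried replicates 1, 2 and 3, and 102, 104 and 100 without control replicates 1, 2 and 3. At 46 loci the difference stayed there whichever single library was left out.

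A smaller group did not hang on any single library in the choice either. Applied to 5 libraries, where fewer must not overlap and the sixth need not reach 5 FPKM, the rule chose 358, 191 and 222 loci without air-dried replicates 1, 2 and 3, and 211, 344 and 197 without control replicates 1, 2 and 3. Applied to any 5 of the 6 libraries, the rule chose 35 of the 121 loci every time. The leading transcript gained share at 24 of these 35 and was assembled at 24, and at 20 the gaining and losing forms had both ends alike. At 23 of the 35 the difference reached 25 points within both sets of libraries. They include the loci described above on chromosome 16, on chromosome 10 from 15464051, on chromosome 5 and on chromosome 13. The highest locus on chromosome 1 is not among them, as its difference lies at the minimum. Nor is the locus on chromosome 6 from 1716228, whose ratio of mean sums exceeds the upper limit without air-dried replicate 1.

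Totals of neighbouring loci, which the rule did not use, were compared to see whether the 121 loci lie where RNA levels changed. In limma on log2(FPKM + 1) over 22729 loci, 7.28% had a higher level in air-dried leaves at an adjusted p under 0.05 and 2.81% a lower one, 10.1% in either direction. Of the 245 tested loci that overlap one of the 121 or lie next to it, 16 were higher and 5 lower, or 8.57%, which is near the background. Their median log2 change was 0.07, as over all tested loci. The neighbours lay a median of 6530 bases away. The 21 calls became 8 without air-dried replicate 3 (3.32%, against 3.96% of all tested loci), 13 without control replicate 1 (5.33%, against 4.93%) and 10 without control replicate 3 (4.12%, against 4.94%), so calls became fewer over all loci as well.

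The called neighbours included 8 with changes of at least 2-fold, or 3.27%, against 2.48% of all tested loci. The largest was on chromosome 5 from 16363049 to 16364216, with 10.9, 11.8 and 10.5 FPKM in air-dried and 0.289, 0.3001 and 0.447 FPKM in control leaves, a log2 change of 3.17 ± 0.10 (SE, limma adjusted p = 5.1e-05). It lies 26191 bases from one of the 121 loci, and all its air-dried values were above all control values. Of 5 loci that overlap one of the 121, 1 was called, on chromosome 2 from 23235338 to 23238495, with a log2 change of 0.45 ± 0.08 (SE, limma adjusted p = 0.0246). Next to the locus on chromosome 10 from 15464051 lay a locus that rose in air-dried leaves, 8687 bases away, with a log2 change of 1.43 ± 0.09 (SE, limma adjusted p = 0.000547).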

How the data were processed

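The deposited files give, per the file headers, FPKM per transcript with its locus, position, strand and known or new status. Per the submitters' processing notes, the authors used FastQC, TopHat and Cufflinks. The sources used here name no version, build or annotation. FPKM scale fragments to transcript length and to the size of the library, and fragments that fit several transcripts are divided by a model. Shares (percent of the locus sum) and sums were then computed in Python 3.11.15 with pandas 2.3.3. The loci, lists and rules were chosen with earlier results of these data known. The share contrast chose the loci and was not tested. Sums of loci reaching 1 FPKM in at least 3 libraries were tested on log2(FPKM + 1) by limma 3.58.1 (R 4.3.3), with a mean-variance trend, two-sided, Benjamini-Hochberg at 0.05. Both steps were tried on simulated data, which hold only the spread put into them. How the rule performs at the spread within groups seen here, or with the sets of libraries described above, is therefore not read from that trial. Named loci were the 12 with the largest difference, the 6 with the highest sums, the 3 nearest the minimum on each side, and 2 identifiers per direction with an annotated leading transcript; neighbours and loci with tight groups were named after their values were seen. Gene lists and markers needing gene names were not analysed here. In locus sums, same-numbered replicates deviated little together (correlations of 0.09, 0.19 and -0.12). This cannot settle whether the numbers pair libraries, and the labels do not say.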

Additional observations from a re-analysis of the deposited data

How the results depend on the processing

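The number of loci moved with most settings: 241 at a minimum sum of 1 FPKM, 54 at 10 and 283 with none, 208 at 20 points and 70 at 30, and 67 at sum ratios between 0.9 and its inverse. Leaving out 1 library gave 191 to 358, more than 1.5 times the main count for each of the 6. Of the 121, 35 were chosen in every such choice and 43 reached 25 points in both sets of libraries; both counts were added after the data were seen. Other scalings, group-mean shares, short transcripts left out and parent genes in place of loci gave 118 to 131. Assembled leading transcripts that gained share numbered 53 of 121, and 145 of 358 without air-dried replicate 1. The median difference stayed within 30.4 to 33.6 points. The loci were chosen for 25 points or more in these same libraries, so this does not show how large the differences are elsewhere. The own-group readings stayed within 35.9% to 38.8%. Called neighbours, 21 in all, numbered 8 to 23 with 1 library left out (3.32% to 9.54% of neighbours, against 3.96% to 8.91% of all tested loci), with 8 without air-dried replicate 3, 13 without control replicate 1 and 10 without control replicate 3. With the replicate number as a block, 11 were called, 4.49% against 4.08% of all tested loci. Whether the numbers pair libraries is not known. The cause of these moves was not tested. Depth behind each share is unknown, and the 121 loci had a median sum of 10.7 FPKM over a minimum of 5.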

Other observations

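A summary of the transcript shares by span is given for each library. It is drawn from the same shares and loci that defined the 2 sets of libraries, so it is no separate evidence for them. The share-weighted span of the transcripts, as a percentage of the locus span and averaged over 10201 loci, was 91.07%, 90.46% and 90.61% in air-dried replicates 1, 2 and 3, against 91.06%, 90.52% and 91.35% in control replicates 1, 2 and 3. The 3 libraries of the first set lay above the 3 of the second, in both treatments.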
